A study of Mus musculus with 46 samples.

Results

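Transcripts of 7 potassium channel genes were examined in single oriens-lacunosum moleculare (OLM) interneurons of the mouse hippocampus. The genes were taken by name from the deposited count table, and all 7 of them were found among its 22800 genes. They were Kcnb2 of the Kv2 family, Kcnq3 and Kcnq5 of the Kv7 family, Kcnma1, which encodes the pore of the large-conductance calcium-activated (BK) channel, and Kcnn1, Kcnn2 and Kcnn3, which encode the pores of small-conductance calcium-activated (SK) channels. OLM cells are somatostatin-containing interneurons that send their axon to the distal dendrites of pyramidal cells. The libraries were made from cytosol sucked into a patch pipette, with 23 cells from the Sst Cre driver line and 23 from the Htr3a Cre driver line, all from animals at P21 to P30 (postnatal days). All of them were labelled as OLM cells that passed quality control. A Cre driver marks cells by the activity of the driver gene, now or earlier in development, and not by their present transcripts. The labels name no animal for any cell, so each line is a single sample. No test compares the lines, and every comparison below describes these 46 cells.

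Kv2 channels are delayed rectifiers that open slowly with depolarization and repolarize the soma and proximal dendrites of neurons. Kv7 subunits carry the M-current, a slow potassium current that limits repetitive firing and is closed by muscarinic receptors through loss of a membrane phosphoinositide. BK channels open with voltage and calcium together and shape the spike and the fast afterhyperpolarization, and their beta subunits set how they respond to calcium and voltage. SK channels open with calcium alone, through calmodulin bound to each subunit, and carry the medium afterhyperpolarization. Functional channels of all these families are assemblies of 4 pore subunits, so which subunits are present in the same cell matters.

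Total counts ranged from 5639490 to 31386369 in Sst-Cre cells and from 3391829 to 26136222 in Htr3a-Cre cells. The median number of genes with a read was 6569 in Sst-Cre cells and 8169 in Htr3a-Cre cells. Over the 10004 genes read in at least 12 cells, the median gene was read in 2 fewer Sst-Cre than Htr3a-Cre cells, so a smaller number of positive cells in the Sst-Cre line is the usual case in these data. The labelled identity was checked against marker genes. Sst, Crhbp, Gad1 and Gad2 had reads in all 46 cells, while Chrna2 was read in 6 Sst-Cre and 10 Htr3a-Cre cells. Htr3a-Cre replicates 4 and 20 held 4 and 24 reads of Gad1, which encodes a GABA-making enzyme, and are kept in the values below unless stated. Markers of other cell types were present. Levels are given as counts scaled to 1000000 per cell (CPM). All 9 microglial markers were found in both lines, with sums of 0.0536 to 10876 CPM (median 774) in Sst-Cre cells and 0 to 8443 CPM (median 448) in Htr3a-Cre cells, and at least 100 CPM in 18 and 16 cells. All 6 oligodendrocyte markers were found too, with median sums of 196 and 114 CPM. Astrocyte markers had median sums of 23.3 and 61.5 CPM and pyramidal cell markers of 0.106 and 15.4 CPM, with Aqp4 and Slc17a7 at 0 in all Sst-Cre cells. Cells whose microglial markers summed to less than 100 CPM, 5 of the Sst-Cre line and 7 of the Htr3a-Cre line, are called low-microglial below. The 7 include Htr3a-Cre replicates 4 and 20, and replicate 4 held the highest oligodendrocyte marker sum of its line (13314 CPM). The part of transcripts of other cell types in any line difference was not tested.

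The channel genes were read in some cells and missed in others, and most values above 0 reached 10 CPM. This was not so for Kcnn3 (2 of 4 positive Sst-Cre and 2 of 7 positive Htr3a-Cre cells). Nor was it so for Kcnn1 in the Sst-Cre line (1 of 3 positive cells). Of the 322 values (7 genes in 46 cells), 190 were 0, 44 lay above 0 and below 10 CPM, and 88 were at least 10 CPM. In Sst-Cre cells 103 of 161 values were 0, and 40 were at least 10 CPM. In Htr3a-Cre cells 87 of 161 were 0, and 48 were at least 10 CPM. A value of 0 does not show that the cell lacked the gene, since cytosol drawn into a pipette is a part of the cell and rare transcripts can be lost before sequencing. Of the 132 positive values 13 rested on fewer than 5 reads.

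**Figure D1:**
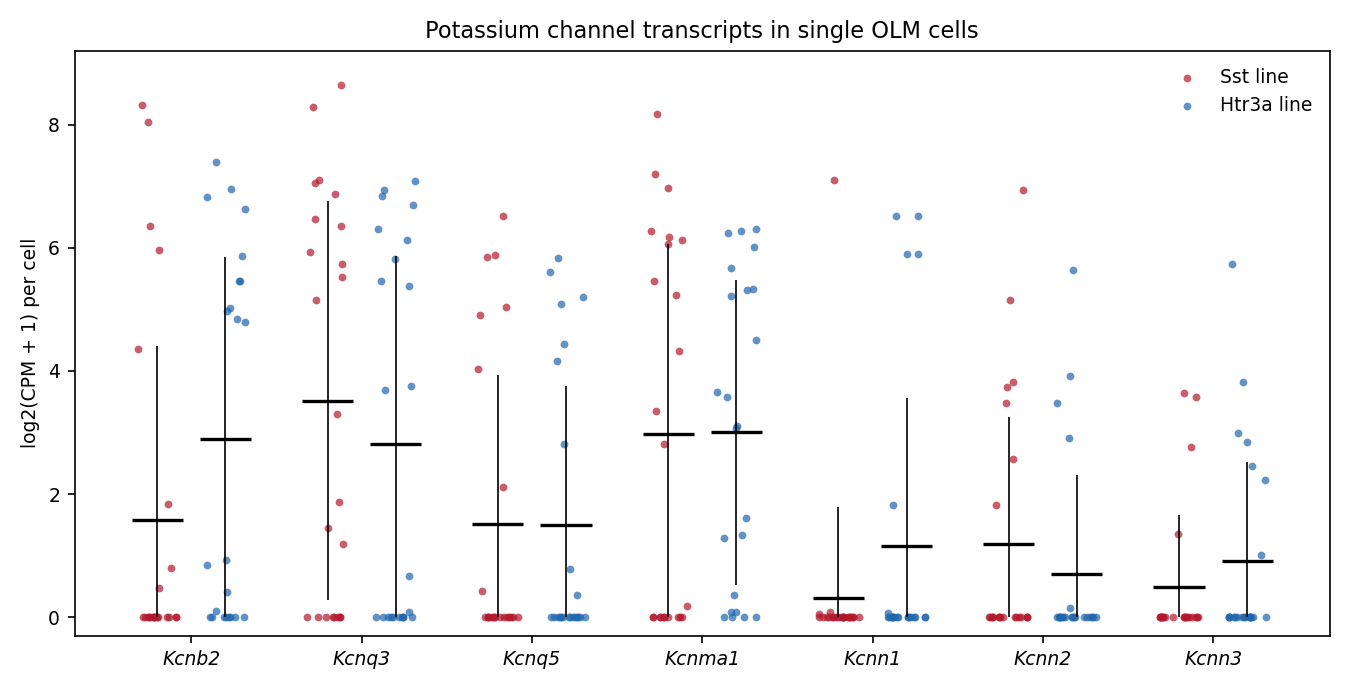
Level of each channel gene in each cell, as log2(CPM + 1), for 23 Sst-Cre cells (red, left) and 23 Htr3a-Cre cells (blue, right). Horizontal bars are means over all cells of a line and vertical bars the SD between cells, drawn no lower than 0. The 2 lines overlap for every gene, and most points lie either at 0 or well above it.

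Kcnma1 and Kcnq3 were the most widely read of the 7 genes, in 32 and 28 of the 46 cells, and Kcnn1 was the least widely read, in 9. Kcnb2 was read in 23 cells, Kcnq5 in 17, Kcnn2 in 12 and Kcnn3 in 11. Transcript levels were compared between genes per length, as counts summed over a line in CPM per kilobase of annotated exon. On this scale the order in the Sst-Cre line was Kcnq3 (4.55), Kcnma1 (2.89), Kcnb2 (1.91), Kcnq5 (1.89), Kcnn2 (1.20), Kcnn1 (0.575) and Kcnn3 (0.159). In the Htr3a-Cre line it was Kcnn1 (2.83), Kcnq3 (2.64), Kcnb2 (2.28), Kcnma1 (1.5), Kcnq5 (1.28), Kcnn2 (0.418) and Kcnn3 (0.390). With every cell weighted equally, Kcnn1 (1.30) stood above Kcnn2 (1.16) in the Sst-Cre line, and the rest of both orders was as given. With each cell left out in turn, Kcnq3 stayed above Kcnma1 in the Sst-Cre line, at 3.68 to 4.92 against 2.22 to 3.08. The ranges of Kcnb2 and Kcnq5 overlapped there, as did those of Kcnn2 with both of them and of Kcnn1 with Kcnn2 and Kcnn3. In the Htr3a-Cre line the ranges of Kcnn1, Kcnq3 and Kcnb2 overlapped one another, as did those of Kcnma1 with Kcnq5 and of Kcnn2 with Kcnn3.

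**Figure D2:**
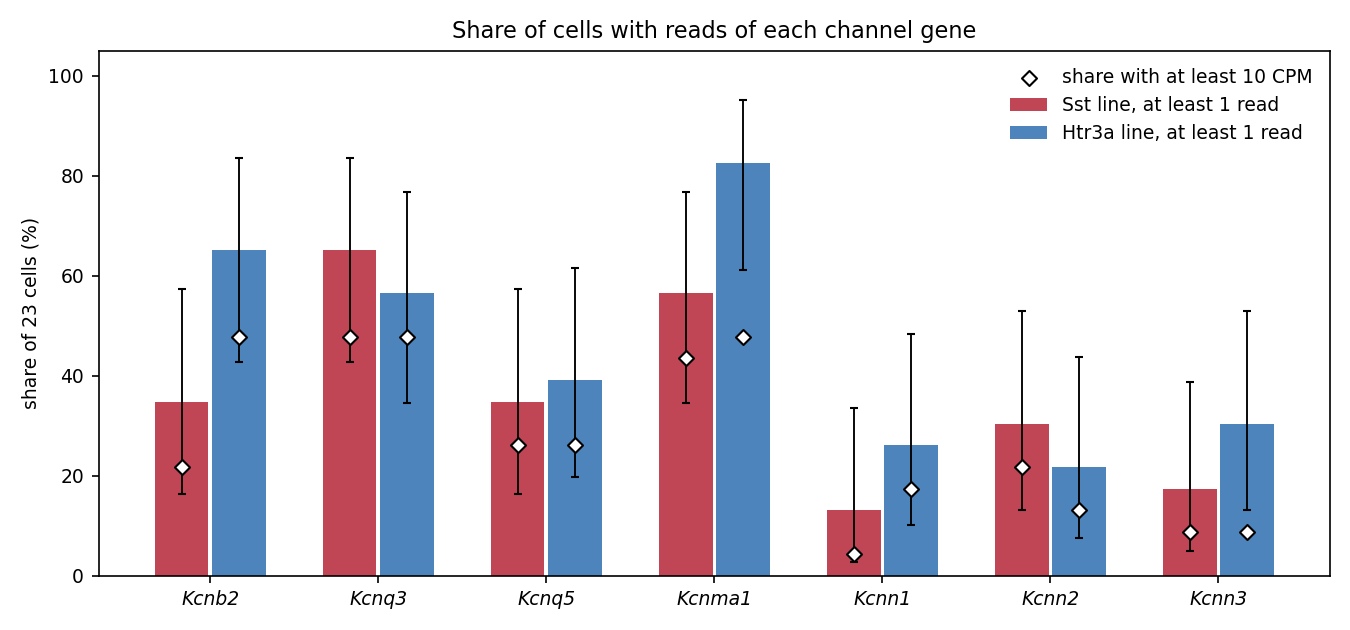
Share of the 23 cells of each line with at least 1 read of each gene (bars, Sst-Cre line red and left, Htr3a-Cre line blue and right), with exact Clopper-Pearson 95% intervals as black lines. White diamonds mark the share with at least 10 CPM. The intervals of the lines overlap for all 7 genes.

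Kcnb2, a Kv2 pore subunit (chromosome 1, 15287254 to 15723750, plus strand, GRCm38, protein-coding), was read in fewer Sst-Cre cells than Htr3a-Cre cells. It had a read in 8 of 23 Sst-Cre cells (34.8%, 95% interval 16.4 to 57.3) and in 15 of 23 Htr3a-Cre cells (65.2%, 42.7 to 83.6). The intervals overlap, and at 10 CPM or more the counts were 5 and 11 cells. In Sst-Cre cells its level had a lowest value and a median of 0 and a highest value of 317 CPM, while in Htr3a-Cre cells the lowest was 0, the median 0.913 and the highest 166 CPM. Cells with a read had a median of 40.5 CPM in the Sst-Cre line and 31.6 CPM in the Htr3a-Cre line, and those with at least 10 CPM had medians of 80.7 and 43.2 CPM. On the log2(CPM + 1) scale the means were 1.57 ± 2.83 in Sst-Cre cells and 2.89 ± 2.96 in Htr3a-Cre cells (SD between 23 cells each), a line difference of -1.32 that is smaller than either SD.

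The 2 highest values, in Sst-Cre replicates 17 and 22, lay above all Htr3a-Cre cells. Summed over the line, the gene took 29.0 CPM in the Sst-Cre line (95% Poisson interval 28.4 to 29.5) and 34.5 CPM in the Htr3a-Cre line (33.9 to 35.1), a log2 ratio of -0.25. Without Sst-Cre replicate 17, the Sst-Cre sum was 13.6 CPM and the log2 ratio was -1.28. In low-microglial cells, Kcnb2 was read in 3 of 5 Sst-Cre and 5 of 7 Htr3a-Cre cells, and the line difference was 1.44. In the other cells it was read in 5 of 18 and 10 of 16, and the difference was -2.12.

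Kcnb2 was the only one of the 7 genes with a mean line difference of at least 1 in size on the log2 scale. Such a difference towards the Htr3a-Cre line (-1 or below) was seen in 14.9% of the 11196 genes whose mean log2(CPM + 1) over all cells reached 0.5, against 1 of the 7, which is close to that share. A difference of 1 or above was seen in 4.24% of these genes and in 0 of the 7, and 1 of either sign in 19.2%. Among the 5521 genes with means between those of the lowest and the highest channel gene, the shares at -1 or below, at 1 or above and of either sign were 16.7%, 3.33% and 20.1%. The median line difference was -0.03 over the 7 genes and -0.22 over the 11196. Of the genes read in at least 12 cells, 17.2% were read in at least 5 fewer Sst-Cre cells, and 18.2% differed by at least 5 cells either way. Among the 5 channel genes with that many positive cells, Kcnb2 (7 fewer) and Kcnma1 (6 fewer) were so placed. At least 5 more Sst-Cre cells were seen for 0.92% of genes and for none of the 5, whose largest value was 2 more cells, for Kcnq3 and Kcnn2.

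**Figure D3:**
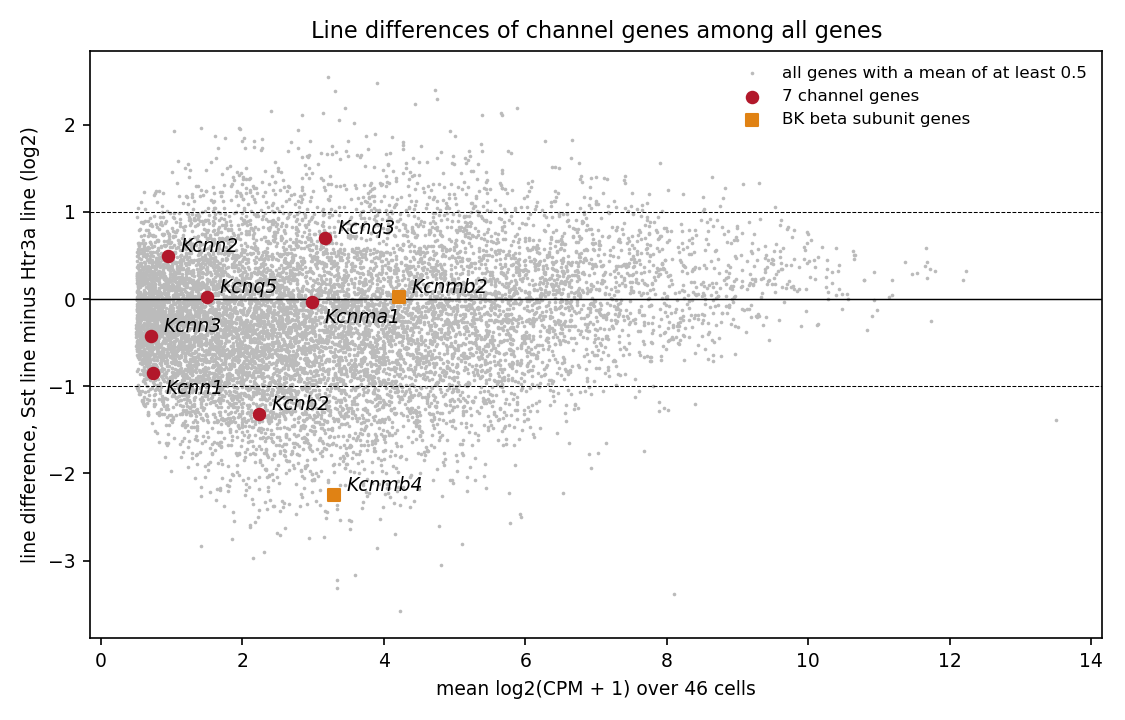
Line difference (Sst-Cre line minus Htr3a-Cre line, in mean log2(CPM + 1)) against the mean level over 46 cells. Grey points are the 11196 genes with a mean of at least 0.5, red points the 7 channel genes and orange squares the BK beta subunit genes Kcnmb2 and Kcnmb4; dashed lines mark differences of 1 and -1. Kcnb2 (-1.32) and Kcnmb4 (-2.25) lie below the lower line.

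The electrically silent subunits do not form channels alone but join Kv2 subunits and change their gating. Of these subunits, Kcnf1 was read in 10 Sst-Cre and 17 Htr3a-Cre cells with a line difference of -1.57, and 0.18 in the low-microglial cells. Kcns3 was read in 13 and 18 cells. Its mean difference was -0.42, and 0.29 in the low-microglial cells, but its summed CPM was 167 in the Sst-Cre line and 78.8 in the Htr3a-Cre line. Vapa encodes an endoplasmic reticulum protein that binds Kv2 channels where that membrane meets the plasma membrane. It had a read in 22 cells of either line (-0.44, and 0.98 in the low-microglial cells). Of the 13 listed Kv2 genes measured besides Kcnb2, 6 reached a mean of 0.5, 1 of them was at -1 or below and 0 at 1 or above, with a median of -0.53, against -0.22 over the 11196 genes. Of those 11196, 14.9% were at -1 or below and 4.24% at 1 or above.

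Kcnq3 (chromosome 15, 65986387 to 66286642, minus strand, protein-coding) was the highest of the 7 genes per length in the Sst-Cre line. It encodes a Kv7 subunit that forms M-channels together with other Kv7 subunits. It was read in 15 of 23 Sst-Cre cells (65.2%, 42.7 to 83.6) and 13 of 23 Htr3a-Cre cells (56.5%, 34.5 to 76.8), and reached 10 CPM in 11 cells of each line. In Sst-Cre cells the lowest value was 0, the median 8.86 and the highest 398 CPM, and in Htr3a-Cre cells they were 0, 0.585 and 135 CPM. The groups overlap, although the 3 highest values, in Sst-Cre replicates 4, 3 and 20, lay above all Htr3a-Cre cells. Cells with a read had a median of 60.3 CPM in the Sst-Cre line and 55.2 CPM in the Htr3a-Cre line. Mean levels were 3.52 ± 3.24 and 2.82 ± 3.05 in log2(CPM + 1) (23 cells each), a difference of 0.70 that is below the SDs. The summed CPM was 67.0 (66.1 to 67.8) and 38.8 (38.1 to 39.5), a log2 ratio of 0.77 that stayed between 0.47 and 0.96 when single cells were left out. In the low-microglial cells the line difference was -1.41, from 2 of 5 Sst-Cre and 4 of 7 Htr3a-Cre cells with a read, and in the other cells it was 1.28.

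Kcnq5 (chromosome 1, 21398403 to 21961942, minus strand, protein-coding), another M-channel subunit, was read in close to the same number of cells in both lines. There were 8 of 23 Sst-Cre cells (34.8%, 16.4 to 57.3) and 9 of 23 Htr3a-Cre cells (39.1%, 19.7 to 61.5) with a read, and 6 of each line reached 10 CPM. The highest value was 90.4 CPM in the Sst-Cre line and 56.1 CPM in the Htr3a-Cre line, and the median and the lowest value over all cells were 0 in both. Sst-Cre replicates 12, 10 and 18 lay above all Htr3a-Cre cells. Cells with a read had medians of 30.4 and 20.7 CPM. Its means in log2(CPM + 1) were 1.51 ± 2.42 in Sst-Cre and 1.49 ± 2.27 in Htr3a-Cre cells, a difference of 0.02. It was 1.16 in the low-microglial and -0.35 in the other cells. Its summed CPM was 14.5 (14.1 to 14.9) and 9.84 (9.51 to 10.2), and without Sst-Cre replicate 12 the Sst-Cre sum was 7.46 and the log2 ratio of 0.52 became -0.36.

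Most cells with Kcnq3 or Kcnq5 held only one of them, and the mix summed over a line was led by Kcnq3 in both lines. Per kilobase and summed over a line, Kcnq3 made up 70.7% of Kcnq3 and Kcnq5 together in the Sst-Cre line and 67.3% in the Htr3a-Cre line. With each cell left out these shares were 65.2 to 82.7% and 63.1 to 71.6%, ranges that overlap. At least 1 of the pair was read in 17 Sst-Cre and 18 Htr3a-Cre cells. Both were read in 6 and 4 of these cells, Kcnq3 alone in 9 and 9, and Kcnq5 alone in 2 and 5. Kcnq1, another Kv7 pore gene, had a read in 0 of 23 cells in either line, which allows a share of cells with a read of up to 13% by a limit of 3 cells and up to 14.8% by the Clopper-Pearson interval.

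Genes that anchor or regulate Kv7 channels gave values on both sides of 0. Ank3, whose product ankyrin-G holds Kv7 and sodium channels at the axon initial segment, was read in 23 Sst-Cre and 20 Htr3a-Cre cells with a line difference of 1.26. That difference was -0.073 in the low-microglial cells. Pip5k1c, which makes the phosphoinositide that keeps Kv7 channels open, was read in 18 and 21 cells (-0.92, and 0.62 in the low-microglial cells). Plcb4, a phospholipase that breaks that lipid down, was read in 12 and 17 cells (-1.28), and was at 1.08 in the low-microglial cells. Of 16 listed genes measured, 8 reached a mean of 0.5, with 1 at -1 or below (2 with edgeR factors), 1 at 1 or above and a median of -0.34. Over the 11196 genes the shares were 14.9% and 4.24% and the median -0.22.

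Kcnma1, the BK pore gene (chromosome 14, 23289431 to 24014491, minus strand, protein-coding), was read in fewer Sst-Cre cells but at a higher level in those that had it. Reads were present in 13 of 23 Sst-Cre cells (56.5%, 34.5 to 76.8) and 19 of 23 Htr3a-Cre cells (82.6%, 61.2 to 95). At 10 CPM or more the numbers were close, at 10 and 11 cells. In Sst-Cre cells the lowest value was 0, the median 6.03 and the highest 287 CPM, and in Htr3a-Cre cells they were 0, 7.58 and 78.0 CPM. Sst-Cre replicates 21, 19 and 2 lay above all Htr3a-Cre cells, and the remaining values overlapped. Among cells with a read the median was 65.7 CPM in the Sst-Cre line and 11.6 CPM in the Htr3a-Cre line. Values below 10 CPM were seen in 3 of the 13 positive Sst-Cre cells and 8 of the 19 positive Htr3a-Cre cells. Among cells with at least 10 CPM the medians were 70.0 and 39.2 CPM, so the log2 difference between medians was 2.40 over all positive cells and 0.82 over these.

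The mean levels of Kcnma1 over all cells were close. The mean log2(CPM + 1) was 2.97 ± 3.10 in Sst-Cre cells and 3.0 ± 2.47 in Htr3a-Cre cells, a line difference of -0.03. The summed CPM was 49.0 (48.3 to 49.8) in the Sst-Cre line and 25.4 (24.9 to 26) in the Htr3a-Cre line, a log2 ratio of 0.92, and it stayed between 0.55 and 1.08 with each cell left out. A log2 ratio of summed CPM of 1 or above was seen in 9.83% of the 11196 genes and one of -1 or below in 10.7%. Among the 7 channel genes only Kcnn2 (1.27) and Kcnn1 (-1.94) passed these bounds. In the low-microglial cells, Kcnma1 was read in 2 of 5 Sst-Cre and 6 of 7 Htr3a-Cre cells, with a line difference of -2.22. In the other cells the difference was 0.63.

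The BK beta subunit genes were common in cells with and without Kcnma1. Kcnmb2 encodes an inactivating beta subunit, and Kcnmb4 encodes the beta subunit typical of neurons, which slows channel opening. One or the other was read in 12 of the 13 Sst-Cre and 19 of the 19 Htr3a-Cre cells with Kcnma1. Taken singly over both lines, Kcnmb2 was read in 26 and Kcnmb4 in 23 of the 32 cells with Kcnma1. Of the 14 cells without Kcnma1, 7 had reads of Kcnmb2 and 8 of Kcnmb4. Cells without Kcnma1 that held either beta gene were not counted. Over 46 cells the rho of Kcnmb2 and Kcnmb4 with Kcnma1 was 0.12 and 0.06. Kcnmb2 was read in 16 and 17 cells, with a line difference of 0.02, which was 2.72 in the low-microglial and -0.97 in the other cells. Kcnmb4 was read in 12 Sst-Cre and 19 Htr3a-Cre cells and reached 10 CPM in 7 and 18. Its mean log2(CPM + 1) was 2.18 ± 2.77 in Sst-Cre and 4.42 ± 2.36 in Htr3a-Cre cells, and the difference of -2.25 is smaller than either SD. By summed CPM, Kcnmb4 was at 21.9 and 47.0, a log2 ratio of -1.07 (-1.57 to -0.90 when single cells were left out). Its line difference was -0.82 in the low-microglial cells. Of the 9 listed BK genes measured besides Kcnma1, 3 reached a mean of 0.5, with 1 at -1 or below, 0 at 1 or above and a median of 0.02. The same values over the 11196 genes were 14.9%, 4.24% and -0.22. Kcnma1 and Kcnmb4 were read together in 7 Sst-Cre and 16 Htr3a-Cre cells, and Kcnma1 without Kcnmb4 in 6 and 3. Antisense genes overlap the exons of Kcnmb4, and 33.4% of its 31-base words also occur in other annotated transcripts, so its counts may include their reads.

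SK channel transcripts were sparse, and 11 of 23 cells of each line (47.8%) held a read of at least 1 SK gene. Kcnn1 encodes SK1, Kcnn2 encodes SK2 and Kcnn3 encodes SK3. Most of these cells held a single SK gene. A single SK gene was read in 9 Sst-Cre and 6 Htr3a-Cre cells, a pair of them in 1 and 3, and all 3 in 1 and 2. The leading SK gene held at least 90% of the SK transcripts per kilobase in 10 of the 11 Sst-Cre and 8 of the 11 Htr3a-Cre cells.

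**Figure D4:**
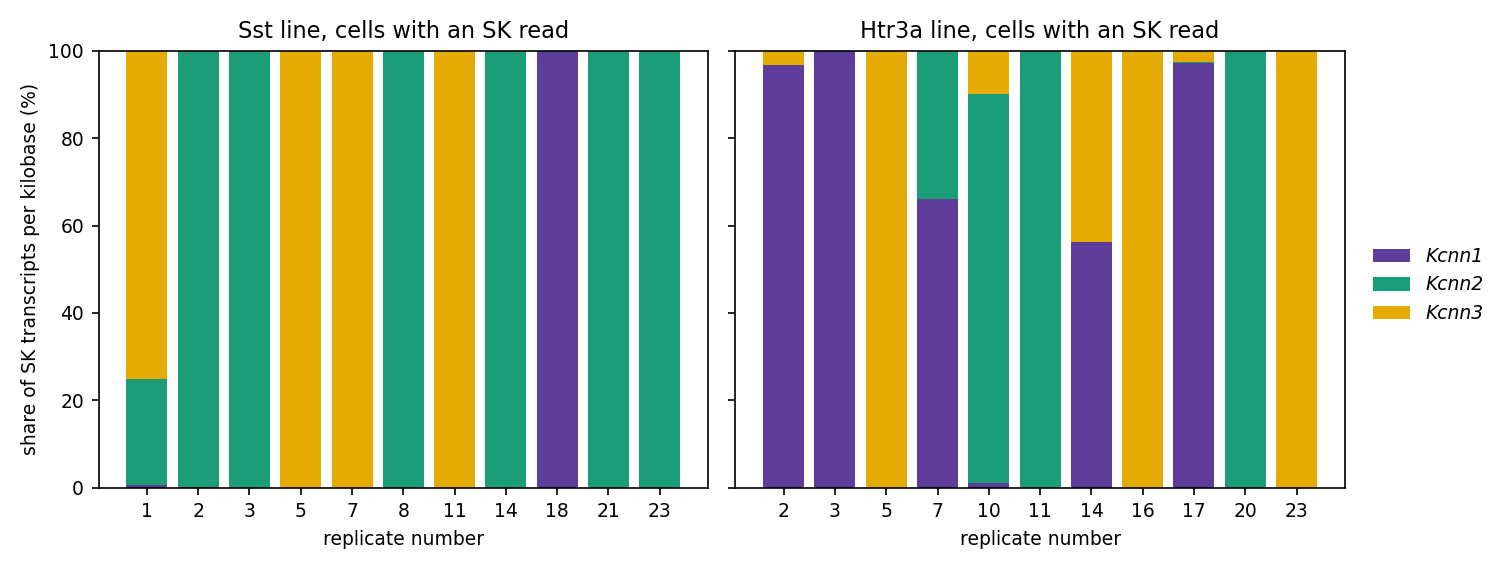
Composition of SK transcripts in each cell with an SK read, as percent of CPM per kilobase summed over Kcnn1 (purple), Kcnn2 (green) and Kcnn3 (yellow), for 11 Sst-Cre cells (left) and 11 Htr3a-Cre cells (right). Most bars have a single colour. Kcnn2 leads in 6 Sst-Cre and 3 Htr3a-Cre cells, Kcnn1 in 1 and 5, and Kcnn3 in 4 and 3.

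Kcnn1 (chromosome 8, 70842049 to 70863258, minus strand, protein-coding) was high in a few cells and close to 0 in the remainder. It was read in 3 of 23 Sst-Cre cells (13%, 2.78 to 33.6) and 6 of 23 Htr3a-Cre cells (26.1%, 10.2 to 48.4). In the Sst-Cre line, replicate 18 held 137 CPM and replicates 1 and 2 held 1 read each. In the Htr3a-Cre line, replicates 2, 3, 7 and 17 held between 58.6 and 91 CPM, replicate 14 held 2.53 CPM and replicate 10 held 1 read. The number of cells at 10 CPM or more was therefore 1 and 4. The summed CPM was 2.64 (2.48 to 2.81) in the Sst-Cre line and 13 (12.6 to 13.4) in the Htr3a-Cre line. Without Sst-Cre replicate 18 the Sst-Cre sum was 0.00552 CPM and the log2 ratio of -1.94 became -3.80, so its size depends on that cell. With each cell left out the ratio lay between -3.80 and -1.56. From the mean of CPM over cells it was -1.02. Mean log2(CPM + 1) was 0.31 ± 1.48 and 1.16 ± 2.40, a line difference of -0.85.

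Kcnn2 (chromosome 18, protein-coding) was read in 7 of 23 Sst-Cre cells (30.4%, 13.2 to 52.9) and 5 of 23 Htr3a-Cre cells (21.7%, 7.46 to 43.7), with 5 and 3 cells at 10 CPM or more. Positive values ran from 2.55 to 122 CPM with a median of 12.4 in Sst-Cre cells, and from 0.114 to 48.9 CPM with a median of 10.2 in Htr3a-Cre cells. The positive cells of the lines overlapped apart from Sst-Cre replicate 8, the highest, and Htr3a-Cre replicate 17, the lowest. The mean log2(CPM + 1) was 1.20 ± 2.05 in the Sst-Cre line and 0.70 ± 1.6 in the Htr3a-Cre line, a difference of 0.50. The summed CPM was 8.96 (8.66 to 9.27) and 3.13 (2.94 to 3.32), a log2 ratio of 1.27. Without Sst-Cre replicate 8 the Sst-Cre sum was 3.46 CPM and the log2 ratio 0.11. Without Htr3a-Cre replicate 7 the Htr3a-Cre sum was 1.01 CPM and the log2 ratio 2.31.

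Kcnn3 (chromosome 3, 89520164 to 89675132, plus strand, protein-coding) was the lowest of the 7 genes per length in both lines. It was read in 4 of 23 Sst-Cre cells (17.4%, 4.95 to 38.8) and 7 of 23 Htr3a-Cre cells (30.4%, 13.2 to 52.9), and 2 cells of each line reached 10 CPM. Positive values ran from 1.56 to 11.4 CPM in Sst-Cre cells and from 1.02 to 52.2 CPM in Htr3a-Cre cells, so the ranges overlap and Htr3a-Cre replicate 23 lies above the others. In log2(CPM + 1) the means were 0.49 ± 1.17 and 0.92 ± 1.61, a difference of -0.42. The summed CPM was 1.66 (1.53 to 1.79) and 4.07 (3.86 to 4.29). Leaving out Sst-Cre replicate 1 gave 0.883, and leaving out Htr3a-Cre replicate 23 gave 1.83, so the log2 ratio of -0.93 ranged from -1.43 to -0.09. Every one of the 11 cells with a Kcnn3 read also had a Kcnma1 read, which 32 of all 46 cells had.

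The SK mix summed over a line differed between the lines, but the Sst-Cre mix was set by single cells. Per kilobase, Kcnn1, Kcnn2 and Kcnn3 made up 29.7%, 62.1% and 8.20% of SK transcripts in the Sst-Cre line and 77.8%, 11.5% and 10.7% in the Htr3a-Cre line. Without Sst-Cre replicate 18 the Kcnn1 share in that line was 0.0869%, and without replicate 8 it was 48.9%. In the Htr3a-Cre line the Kcnn1 share stayed between 71.9 and 82.9% with each cell left out. When each positive cell was given equal weight, the mean shares were 9.17%, 56.7% and 34.1% in the Sst-Cre line and 38%, 29.3% and 32.7% in the Htr3a-Cre line. In low-microglial cells, Kcnn1, Kcnn2 and Kcnn3 were read in 0, 1 and 0 of 5 Sst-Cre cells and in 1, 2 and 2 of 7 Htr3a-Cre cells, with line differences of -0.011, -0.28 and -0.96. Kcnn4, the intermediate-conductance relative of the SK genes, was read in 1 cell of each line.

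Calm2 encodes calmodulin, the calcium sensor of SK channels, which also binds Kv7 channels. It was found in all 46 cells, with a line difference of 0.35, and 0.69 in the low-microglial cells. Csnk2b, the regulatory subunit of casein kinase II, which phosphorylates SK-bound calmodulin, was read in 17 Sst-Cre and 20 Htr3a-Cre cells (-1.30, and -0.90 in the low-microglial cells). Of the 10 listed SK genes and partners, 9 reached a mean of 0.5, with 1 at -1 or below, 0 at 1 or above and a median of -0.07. Among the calcium sources, Cacna1a, the pore of P/Q-type calcium channels, was read in 21 and 17 cells (1.03, and 2.45 in the low-microglial cells). Ryr2, a calcium release channel of the endoplasmic reticulum, was read in 20 and 18 (0.34, and 1.35 in the low-microglial cells). Its summed CPM went the other way, at 54.7 in the Sst-Cre line and 78.6 in the Htr3a-Cre line, a log2 ratio of -0.51. Without Htr3a-Cre replicate 4 that ratio was 0.02. Of the 14 calcium source genes measured, 8 reached a mean of 0.5. Of these, 1 was at 1 or above (0 with edgeR factors) and 0 at -1 or below (1 with edgeR or DESeq2 factors), with a median of 0.05. Both lists stand beside 14.9% at -1 or below, 4.24% at 1 or above and a median of -0.22 over the 11196 genes.

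The number of the 7 genes with a read per cell had a median of 2 in Sst-Cre cells (0 to 5) and 3 in Htr3a-Cre cells (0 to 7). Sst-Cre replicate 15 and Htr3a-Cre replicate 6 held none, with 5110 and 3350 genes read. Htr3a-Cre replicate 10, with 12693 genes read, held all 7. Counting only values of at least 10 CPM, the median was 2 in both lines and the highest 4. Across cells the number of channel genes read went with the number of genes read, with Spearman's rho of 0.50 in 23 Sst-Cre and 0.72 in 23 Htr3a-Cre cells (Pearson's r 0.51 and 0.76), as a description of libraries that share these 2 counts. BK and SK transcripts were read together in 8 Sst-Cre and 10 Htr3a-Cre cells, SK without BK in 3 and 1, and neither in 7 and 3.

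**Figure D5:**
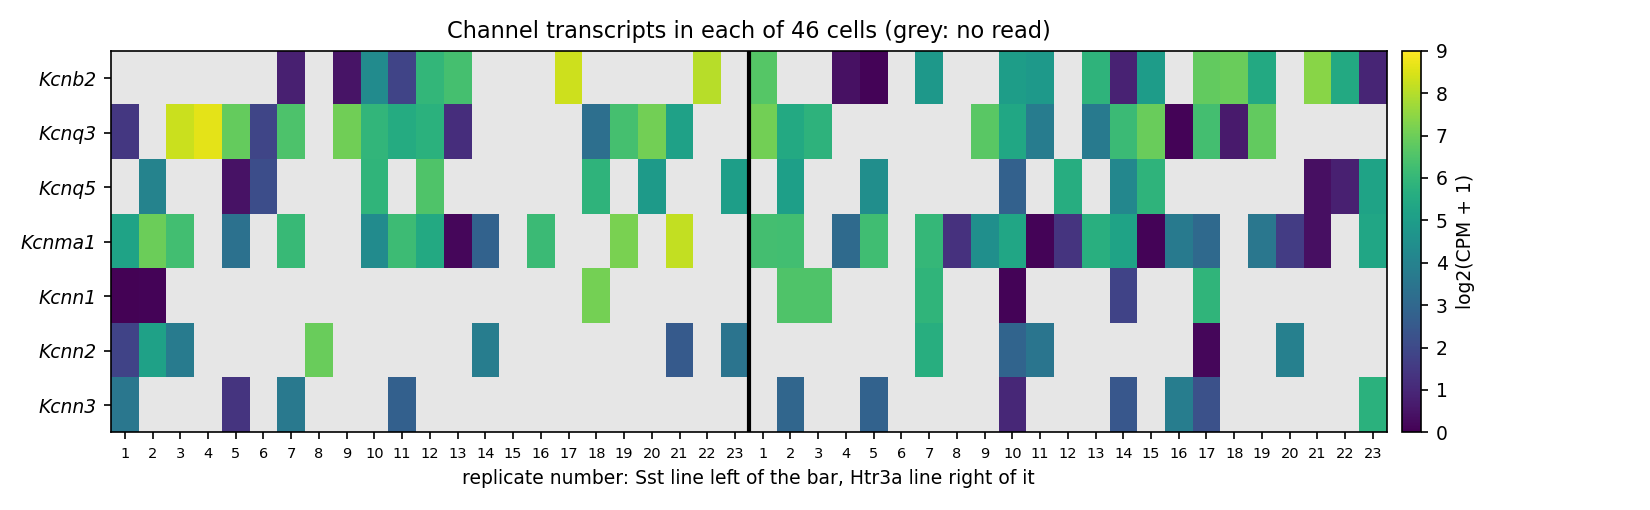
Level of the 7 channel genes in each of the 46 cells, as log2(CPM + 1) in colour, with cells as columns (Sst-Cre line left of the black bar, Htr3a-Cre line right of it) and grey where no read was found. Filled squares are most frequent in the Kcnma1 and Kcnq3 rows. Htr3a-Cre replicate 10 is filled in all 7 rows.

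The genes whose levels over the 46 cells were most like those of each channel gene were sought among 9355 other genes read in at least 12 cells, by Spearman's rho. For Kcnb2 they were Zfp512 (0.59), Oard1 (0.58) and Cecr5 (0.57). For Kcnq3 they were Bbc3 (0.64), Hsd17b4 (0.62) and Apmap (0.56), and for Kcnq5 they were Alkbh2 (0.65), Cep350 (0.58) and Cul4a (0.58). The closest to Kcnma1 were Acox3 (0.54), Ankrd28 (0.53) and Tgfb1i1 (0.53). For Kcnn2, Rps29, a ribosomal protein gene (0.60), and mt-Rnr2, a mitochondrial ribosomal RNA (0.55), were among the 3 closest. These are the highest of many values over sparse counts that share library size and gene number, and are descriptions only. Between pairs of the 7 genes rho ran from -0.21 (Kcnq3 with Kcnn2) to 0.39 (Kcnma1 with Kcnn3).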

How the data were processed

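Single-cell RNA libraries of 46 patched OLM cells were measured. The authors deposited raw read counts per gene, by symbol (used here) and by Ensembl identifier, with Trimmomatic, STAR, featureCounts and GRCm38 named per the submitters' processing notes; no source used here gives their versions, the annotation, the strand setting or molecular identifiers. The authors also deposited a normalized signal, which is the count divided by 1 factor per cell for 100% of non-zero values within 0.1%. Counts of the 7 genes were identical in both count tables, and 0 pairs of libraries were identical.

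Counts were scaled to 1000000 per cell (CPM). The line difference is the mean log2(CPM + 1) of Sst-Cre minus Htr3a-Cre cells. Summed CPM pools counts over a line, with a log2 ratio after adding 1. Clopper-Pearson intervals (95%) treat the cells of a line as independent draws, and Poisson intervals (95%) treat reads as independent counts. Neither covers differences between animals, and the Poisson intervals do not cover the spread between cells. For a gene read in 0 cells, 3 cells were taken as an approximate upper limit. That limit bounds the share from above only, while a Clopper-Pearson interval has both ends. Names, exon lengths, coordinates and 31-base words came from GENCODE M21 (GRCm38), which matched 21906 of 22800 symbols. At most 7.58% of the words of any of the 7 genes occurred in other genes' transcripts. Opposite-strand genes overlap exons of Kcnq5, Kcnma1, Kcnn1 and Kcnn2, so without a known strand setting reads of the pairs cannot be told apart. Python 3.11.15, edgeR 4.0.16 and DESeq2 1.42.0 (both for scaling alternatives only) were used. Alternatives for partner genes and for levels in positive cells were added after seeing the data. On simulated counts for 22800 genes, 94% of 100 genes raised 4-fold in the Sst-Cre line and 94% of 100 lowered to 0.25-fold had the right sign. Only genes averaging 3 or more in log2(CPM + 1) were altered in that simulation. Of the 7 channel genes, Kcnq3 alone (3.17) averaged as much, and the others lay between 0.70 (Kcnn3) and 2.99 (Kcnma1). The shares of 94% were therefore not measured for genes as sparse as these others.

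Named genes were the 7 members; pore genes of their families; listed partners read in at least 12 cells with a difference of at least 1, or among the 2 highest of their list; and the 3 most similar genes of each member read in at least 12 cells. The members and lists were chosen with earlier results of these data known. Some genes that the rule takes, pore genes among them, are not reported here, so the Kv7 mix is over Kcnq3 and Kcnq5, not over all measured Kcnq genes as designed.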

Additional observations from a re-analysis of the deposited data

How the results depend on the processing

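No paired analysis was possible because replicate numbers only name the cells and no cell is tied to an animal. The Kcnb2 line difference of -1.32 kept its sign under other scalings, a pseudocount of 10 (-0.56), thinning to 3000000 reads (-1.30), medians (-0.94) and without Htr3a-Cre replicates 4 and 20 (-1.58), and lay between -1.63 and -1.12 with single cells left out. It was 1.44 without cells with at least 100 CPM of microglial markers. That setting leaves 5 Sst-Cre and 7 Htr3a-Cre cells, with Htr3a-Cre replicates 4 and 20 among the 7. Kcnb2 was at 5.97, 6.35, 0, 8.31 and 0 in log2(CPM + 1) in Sst-Cre replicates 12, 13, 15, 17 and 23. It was at 0.42, 0, 5.03, 6.95, 5.47, 0 and 0.94 in Htr3a-Cre replicates 4, 9, 10, 18, 19, 20 and 23. Sst-Cre replicate 23 lay just under the bound, at 99.6 CPM of microglial markers. The value of 1.44 was not computed again with any of these cells left out. The same setting gave 0.18 for Kcnf1, -0.073 for Ank3 and 1.08 for Plcb4. The cause was not tested. At 10 CPM or more, the difference in positive cells was -1 for Kcnma1, against -6, and 0 for Kcnn3, against -3. The level in positive cells, as a log2 difference of medians, was -5.82 for Kcnn1 and 1.20 with at least 5 reads or 0.87 with at least 10 CPM; it lay between -5.83 and 0.22 with single cells left out, since 2 of its 3 positive Sst-Cre cells hold 1 read. For Kcnn3 it was 0.39, and -1.46 at 10 CPM. With edgeR factors the Kv7 list had 2 genes at -1 or below, and the calcium source list 1 at -1 or below and 0 at 1 or above. With DESeq2 factors the calcium source list had 1 at -1 or below. Thinning moved the number of positive cells of any member by at most 2 in a line. Without Htr3a-Cre replicates 4 and 20 the line differences of Kcnq3, Kcnq5, Kcnma1, Kcnn1, Kcnn2 and Kcnn3 were 0.43, -0.12, -0.093, -0.96, 0.62 and -0.51. Cells with a read then differed by -6 for Kcnb2, -4 for Kcnma1 and 3 for Kcnn2. Depth does not tell a gene that was absent from one lost in capture.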
